A study of Mus musculus with 8 samples.

Results

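Heat shock proteins and chaperonins are the molecular chaperones that fold new proteins, refold damaged ones and hold others ready for degradation or assembly. They were taken from the deposited gene table by symbol, as every gene whose name begins with Hspa, Hspb, Hspd, Hspe, Hsph, Hsp90, Dnaja, Dnajb or Dnajc, with the subunits of the chaperonin CCT (Tcp1, Cct2, Cct3, Cct4, Cct5, Cct6a, Cct7 and Cct8) and the co-chaperones Stip1, St13, Bag1 and Bag3. The rule took 86 of the 57180 genes, after 15 names holding -ps, used for pseudogenes, had been left out. No measured value entered the choice. The prefix Hspb also caught Hspbap1 and Hspbp1, which are binding partners of chaperones and not small heat shock proteins, and both are counted here with the co-chaperones.

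The RNA came from regulatory T (Treg) cells, which hold other immune cells in check, in a study whose title concerns copper and suppression by these cells. Cells sorted from mice were sequenced as 8 libraries, 5 with titles that name them chimera WT (here WT) and 3 chimera KO (here KO). The labels name no deleted gene, strain, age or treatment, do not say how the chimeras were made, and do not tie libraries to animals, so that the p-values rest on the spread among these libraries, which may in part be technical. The deleted gene could therefore not be checked in the counts. Libraries were made from total RNA with a low-input full-length kit, SMART-Seq V4, which does not mark strand.

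Hsp70 proteins bind exposed hydrophobic stretches and release them on an ATP cycle that J-domain proteins (the DNAJA, DNAJB and DNAJC families) start and that Hsp110 proteins help to reset. Hsp90 proteins take over later folding steps of kinases and receptors, with Stip1 and St13 as links to Hsp70, while the mitochondrial Hsp60 and Hsp10 pair and the cytosolic ring CCT enclose their clients, actin and tubulin among those of CCT. Each cell compartment has its own members, Hspa5 and Hsp90b1 in the endoplasmic reticulum (ER) and Hspa9, Hspd1 and Hspe1 in mitochondria. Stress-inducible members are driven by heat shock factor in the cytosol and by the unfolded protein response in the ER, and an excess of copper ions is a known inducer of heat shock genes.

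Promoter sequence shows which members carry these stress elements, and the windows with the clearest matches are printed here because their genes are followed through the results below. RefSeq (GRCm38.p6) gave a window from 250 bases before to 50 after the start for 69 of the 86 members, 88 windows in all, and 17 members had none in the table, among them Hspa8, Hsp90aa1 and Hsp90ab1. A heat shock element was searched on both strands as 3 alternating units of GAA and TTC, each set off from the next by 2 bases of any kind. It stood in 4 of the 69 members (5.8%) and in 0.662% of the 27025 genes with a window. The 4 were Hspd1, Hspe1, Hsph1 and Dnajb6. Hspd1 and Hspe1 lie head to head on chromosome 1. The Hspd1 window at chr1:55087883-55088182 shares 285 bases with the Hspe1 window, read from opposite strands, so that both hold the same 2 overlapping matches. A second Hspd1 window, at chr1:55088194-55088493, shares 4 bases with the Hspe1 window and holds no 3-unit match. The 250 bases before the start of Hspe1, on the plus strand at chr1:55087898-55088147, follow with the matches in capitals, and below them 60 bases from the Dnajb6 window, on the plus strand at chr5:29735829-29735888.
Hspe1: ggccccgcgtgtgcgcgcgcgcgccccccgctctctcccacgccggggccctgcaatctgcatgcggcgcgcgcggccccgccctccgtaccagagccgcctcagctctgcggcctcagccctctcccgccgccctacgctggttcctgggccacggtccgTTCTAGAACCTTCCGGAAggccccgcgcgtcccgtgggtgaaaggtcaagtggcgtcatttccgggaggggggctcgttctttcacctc
Dnajb6: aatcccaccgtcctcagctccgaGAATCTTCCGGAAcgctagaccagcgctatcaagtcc
The shorter form with 2 units (GAA and TTC in either order, 2 bases apart), which every 3-unit match contains, stood in 20 of the 69 members (29.0%) and in 4587 of the 27025 genes.

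The ER stress element recognised by the factor ATF6, a CCAAT box set off from the letters CCACG by 9 bases of any kind and searched on both strands, stood in 3 of 69 members (4.3%) and in 0.137% of all genes with a window. The 3 were Hspa5, Hsp90b1 and Dnajc3, all ER members, and Hsp90b1 held 2 copies. The sequences are the 250 bases before each start, at chr2:34771840-34772089 on the plus strand for Hspa5, chr10:86705445-86705694 on the minus strand for Hsp90b1 and chr14:118937682-118937931 on the plus strand for Dnajc3, with the elements in capitals.
Hspa5: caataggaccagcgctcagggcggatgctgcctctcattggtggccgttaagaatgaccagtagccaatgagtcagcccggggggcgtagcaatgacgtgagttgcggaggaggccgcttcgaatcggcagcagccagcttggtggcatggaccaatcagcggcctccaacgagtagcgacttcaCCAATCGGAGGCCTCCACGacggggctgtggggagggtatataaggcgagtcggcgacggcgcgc
Hsp90b1: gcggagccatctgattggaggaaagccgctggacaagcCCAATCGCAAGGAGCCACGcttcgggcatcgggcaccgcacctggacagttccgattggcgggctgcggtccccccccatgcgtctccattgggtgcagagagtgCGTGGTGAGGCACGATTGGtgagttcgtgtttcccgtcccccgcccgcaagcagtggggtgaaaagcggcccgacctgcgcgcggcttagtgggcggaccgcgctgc
Dnajc3: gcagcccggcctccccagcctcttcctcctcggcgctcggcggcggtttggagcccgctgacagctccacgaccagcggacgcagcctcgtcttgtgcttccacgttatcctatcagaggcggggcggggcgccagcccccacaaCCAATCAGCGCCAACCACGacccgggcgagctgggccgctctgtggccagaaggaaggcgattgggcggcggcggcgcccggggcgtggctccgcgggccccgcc
The CCAAT box alone (CCAAT or ATTGG, overlapping the ER stress element where that was found) stood in 43.5% of members against 41.1% of genes, and TATAAA on the gene's strand in 7.2% against 9.77%. A match describes the letters in a window and is not a measured binding site.

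Before any member is compared, the libraries themselves need a description. WT libraries held 10544594 to 17976947 counts and KO libraries 4314262 to 8477688. WT replicates 4 and 5 stood apart, with 8250 and 9484 genes at 10 or more counts against 12491 to 14318 in the other 6 libraries, and scaling factors from TMM (trimmed mean of M values) of 0.400 and 0.689 against 1.08 to 1.49. The spread between libraries of a group was wide, with a common biological coefficient of variation of 1.29 in edgeR. Foxp3, the defining Treg factor, had 144, 422, 499, 22 and 9 counts in WT and 304, 18 and 135 in KO. It was thus low in WT replicates 4 and 5 and in KO replicate 2. All 12 Treg markers had at least 1 count in every library but WT replicate 2, where 1 was at 0. Summed Treg markers ran from 5499 to 19370 normalised CPM (the usual CPM scale, with library size multiplied by its TMM factor) in WT and from 1542 to 4021 in KO. The highest sum, in WT replicate 4, came mostly from general T cell genes, Cd3d (4573), Cd3e (1386), Cd3g (5518) and Trac (4373). In that library Ikzf2 was at 81.05 and Foxp3 at 3.09, against 2270 to 4633 and 11.95 to 41.95 in WT replicates 1 to 3. The sum therefore does not rank the libraries by Treg content. Markers of other cells were summed in the same way. The 10 B cell markers reached 3371 and the 10 CD8 T and NK cell markers 4276 in WT replicate 4, against at most 560 and 144 in the other 7 libraries, with 2 and 6 markers of those lists at 0 there. The 10 myeloid markers gave 1699 in WT replicate 4, 619 in WT replicate 5 and 43.7 to 248 elsewhere, and the 8 erythroid markers 9557 in WT replicate 5 and at most 22.2 elsewhere. The part of these other cells in the results below was not tested, and the main results are given with and without WT replicates 4 and 5. In bulk RNA, fewer cells of a type and less RNA per cell cannot be told apart.

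Chaperone RNA took a smaller share of the counts in 2 of the 3 KO libraries than in any WT library. The 86 members together made up 0.714%, 0.547%, 0.520%, 0.716% and 0.721% of all counts in WT replicates 1 to 5 and 0.539%, 0.347% and 0.296% in KO replicates 1 to 3. KO replicate 1 lay inside the WT range, so the groups overlapped. Of the 86 members, 80 had at least 1 count somewhere, 65 passed the filter on low counts and 21 did not. Members with 10 or more counts numbered 45 to 60 in a WT library and 52 to 59 in a KO library.

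No member passed the test between KO and WT, and neither did any other gene. edgeR's quasi-likelihood test with Benjamini-Hochberg adjustment called 0 of 65 members and 0 of all 14755 genes (0.0%), with the lowest adjusted p among members at 0.304. At an unadjusted p under 0.05 it marked 14 members, while it marked 6.43% of all genes as lower in KO and 7.96% as higher. The 14 take both directions together, for which it marked 2124 of all genes and 1433 of the 10768 protein-coding ones. DESeq2, run as an alternative on the same counts, called 15 members lower and 2 higher in KO, against 10.0% and 6.4% of all genes. Among the 10768 protein-coding genes it called 1335 lower and 451 higher. The 15 were Hspa8, Hspa5, Hsp90aa1, Hsp90b1, Hspd1, Cct2, Cct6a, Cct7, Cct8, Dnajc4, Dnajc5, Dnajc8, Dnajc15, Dnajc19 and Dnajc24, and the 2 were Hspa1b and Dnajc27, which passed the filter on low counts through the KO libraries alone and so had to differ. Dnajc24 passed that filter through the WT libraries alone, with the same limit. Without WT replicates 4 and 5, DESeq2 called 8 members lower and 2 higher, against 4.24% and 3.95% of all genes. Those lower were Hsp90aa1, Cct6a, Cct7, Dnaja1, Dnajc4, Dnajc8, Dnajc19 and Dnajc24, and those higher were Dnajc27 and Stip1.

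Most tested members had a log2 change below 0, as did most protein-coding genes, and the difference between members and other genes was not tested. Of the 65, 47 (72.3%) had a log2 change below 0 and their median was -1.27, against 56.8% and -0.42 for all tested genes and 66.5% and -0.86 for protein-coding ones. Scaling by library totals in place of TMM moved the median of all genes to 0.21 and that of the members to -0.43, and without WT replicates 4 and 5 the medians were -0.15 and -0.70. The members' median minus that of all genes was -0.86, -0.64 and -0.55 in these 3 settings, and minus that of protein-coding genes, which nearly all members are, -0.41, -0.28 and -0.22. Within WT alone the members' median log2(normalised CPM + 1) had an SD of 0.83 over the 5 libraries. Every log2 change given below should be read against -0.42 for all genes and -0.86 for protein-coding ones. WT replicates 2 and 3 carry library names with another prefix than the other 6 libraries, and without them the members' median was -1.16.

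**Figure D1:**
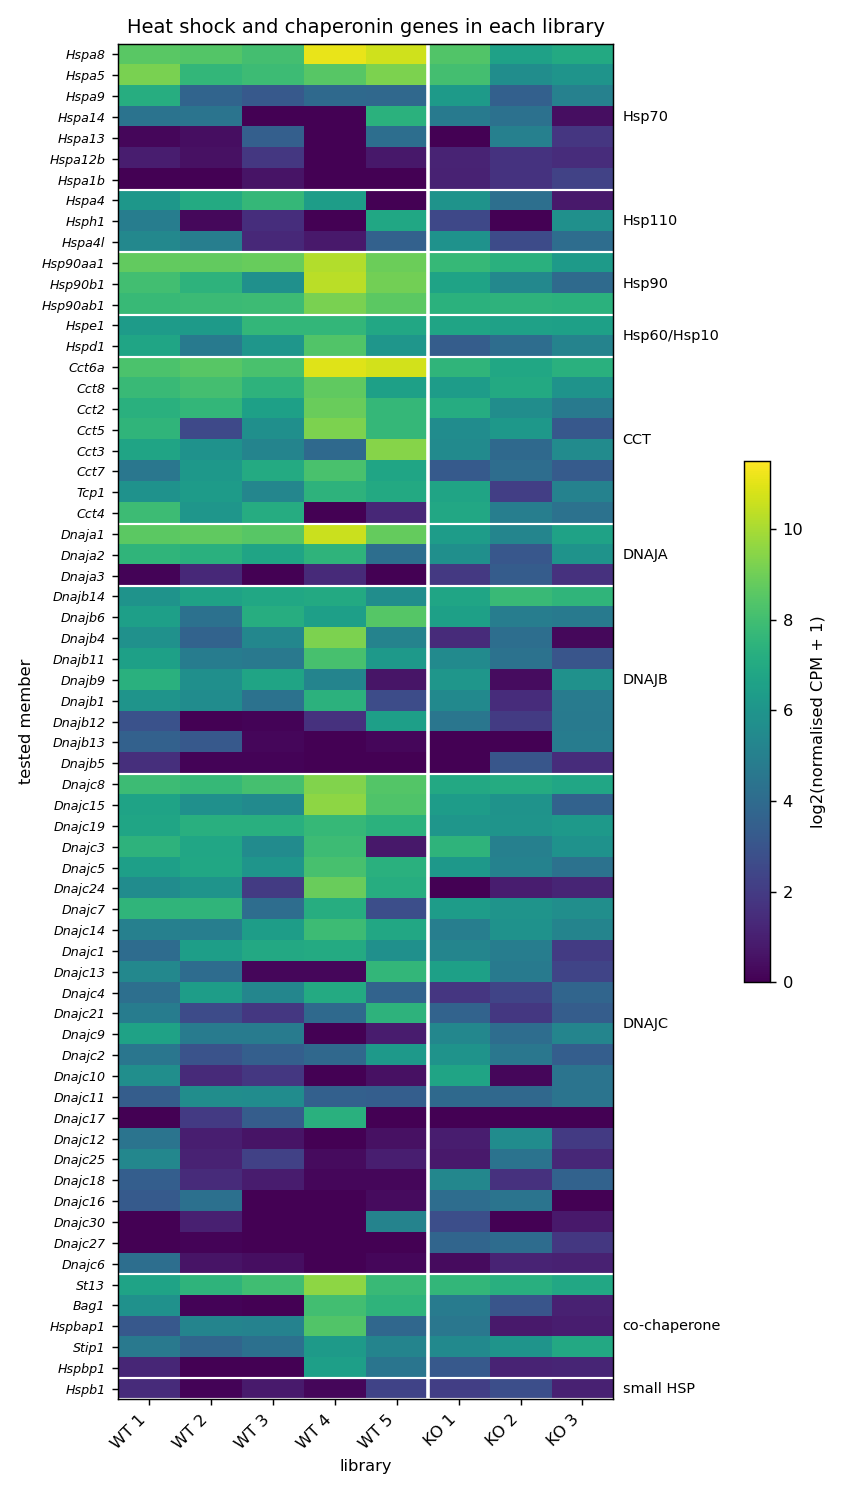
Heat map of the tested chaperone genes (rows, grouped by family) in the 8 libraries (columns), coloured by log2(normalised CPM + 1) from dark (low) to yellow (high). The brightest cells are those of Hspa8 and Cct6a in WT replicates 4 and 5 and of Dnaja1, Hsp90b1 and Hsp90aa1 in WT replicate 4, and these rows are darker in the 3 KO columns.

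Groups of libraries were also compared by whether they overlapped at all. In normalised CPM all 3 KO libraries lay below all 5 WT libraries for 8 members, namely Cct6a, Cct7, Dnaja1, Dnajc8, Dnajc19, Dnajc24, Hsp90aa1 and Hsp90ab1. That is 8 of 65 members where 4.49% of all genes and 5.43% of protein-coding genes did so. Dnajc24 passed the filter on low counts only through the WT libraries, so its place among the 8 supports nothing. KO lay above WT for 3 members, Dnaja3, Dnajc27 and Hspa1b, against 13.2% of all genes and 8.42% of protein-coding ones. None of the 3 would have passed the filter on low counts without the KO libraries, so their separation supports nothing. With library totals as the scale the counts were 6 below and 5 above (1.67% and 18.8% of all genes), as Dnajc19 and Hsp90ab1 came to overlap and Stip1 and Dnajb14 to stand above, where protein-coding genes gave 2.01% and 12.2%. With DESeq2 size factors they were 10 below and 2 above, against 6.09% and 10.0% of all genes and 7.26% and 6.55% of protein-coding ones. Without WT replicates 4 and 5 they were 12 and 4, against 10.5% and 16.2% of all genes and 12.4% and 11.2% of protein-coding ones. Dnajc8, Dnajc19, Dnaja3, Dnajb14 and Dnajc27 are named after their values were seen.

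The constitutive cytosolic Hsp70, Hspa8 (chr9:40800984-40810087, plus strand), was among the most abundant members. Its normalised CPM was 381, 338, 266, 2229 and 1640 in WT replicates 1 to 5 and 332, 95.1 and 126 in KO replicates 1 to 3. KO replicate 1 lay between WT replicates 2 and 3, and WT replicates 4 and 5 were far above all others. The log2 change was -2.40 with a standard error of 0.93 (edgeR, adjusted p = 0.3245), and -0.84 without those 2 libraries. The annotation places 3 small nucleolar RNAs within Hspa8 exons on the same strand, and their reads cannot be told from the gene's own.

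Hspa5 (BiP), the Hsp70 of the ER, gave 578, 193, 236, 369 and 606 CPM in WT and 264, 48.6 and 60.1 in KO. KO replicates 2 and 3 were below every WT library, while KO replicate 1 was within the WT range. Its log2 change was -1.67 ± 0.78 (SE, edgeR adjusted p = 0.353), and -2.94 without KO replicate 1. Hspa9, the mitochondrial Hsp70, read 143, 12.0, 8.41, 14.2 and 13.7 CPM in WT and 75.2, 10.5 and 32.4 in KO. Replicate 1 of each group was the highest of its group, and the log2 change of 0.04 turned negative in 12 of 20 alternative settings.

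The heat-inducible Hsp70 pair, Hspa1a and Hspa1b, was close to silent. Hspa1a had 0 counts in all 8 libraries, and Hspa1b had 0, 0, 6, 0 and 0 counts in WT and 13, 15 and 21 in KO. Every KO library was above every WT library for Hspa1b at a lower depth, with a log2 change of 4.28 (edgeR adjusted p = 0.3245), and DESeq2 called it higher (adjusted p = 0.0112), though not without WT replicates 4 and 5. The gene passed the filter on low counts only through the KO libraries, where it is high, so its separation and its call support nothing, and without WT replicate 3, the one WT library with counts, the log2 change was 7.40. The 2 genes are near-identical neighbours, so the counting could have placed the reads of one under the other. Hspa1l was at 0 counts throughout, and Hspa2 had 103 counts in WT replicate 2, 43 in WT replicate 5 and at most 4 elsewhere. Hspa14, a ribosome-associated Hsp70, ranged from 0 to 162 CPM in WT and from 0.358 to 25.0 in KO, and its log2 change of -1.47 turned positive without WT replicate 5.

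Hsp110 proteins exchange the nucleotide on Hsp70, and for all 3 of them the KO and WT libraries overlapped. Hspa4 gave 67.8, 128, 200, 83.7 and 0 CPM in WT and 58.6, 17.2 and 0.716 in KO, with no count in WT replicate 5 and 4 counts in KO replicate 3. Hsph1, which holds a heat shock element, ran from 0 to 114 CPM in WT and from 0 to 53.0 in KO, and Hspa4l from 0.702 to 39.9 and from 5.23 to 57.9.

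Of the Hsp90 genes, both cytosolic ones lay wholly lower in KO. Hsp90aa1 (chr12:110690605-110702728, minus strand), the more stress-responsive form, read 428, 422, 446, 1166 and 486 CPM in WT and 211, 155 and 77.1 in KO. The 3 KO libraries were all below the lowest WT library, and 4 of the 5 WT libraries were close together. Its log2 change was -1.998 ± 0.63 (SE, edgeR adjusted p = 0.3245), and DESeq2 called it lower with all libraries (adjusted p = 0.00658) and without WT replicates 4 and 5 (adjusted p = 0.0377). Hsp90ab1 (chr17:45567775-45573271, minus strand), the constitutive form, was narrower, with 211, 230, 234, 581 and 391 CPM in WT and 159, 172 and 162 in KO. The log2 change was -1.0035 ± 0.57 (SE, edgeR adjusted p = 0.397), and on library totals its groups overlapped.

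Hsp90b1 (Grp94), the ER form, had 257, 174, 53.0, 1269 and 535 CPM in WT and 102, 39.8 and 14.9 in KO. WT replicate 3 was below KO replicate 1, so the groups overlapped, and the log2 change was -3.13 ± 1.14 (SE, edgeR adjusted p = 0.3245). A transcribed pseudogene on the opposite strand shares 415 exonic bases with Hsp90b1. Hspa5, Hsp90b1 and Dnajc3, the 3 members with an ER stress element, had log2 changes of -1.67, -3.13 and -0.36.

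**Figure D2:**
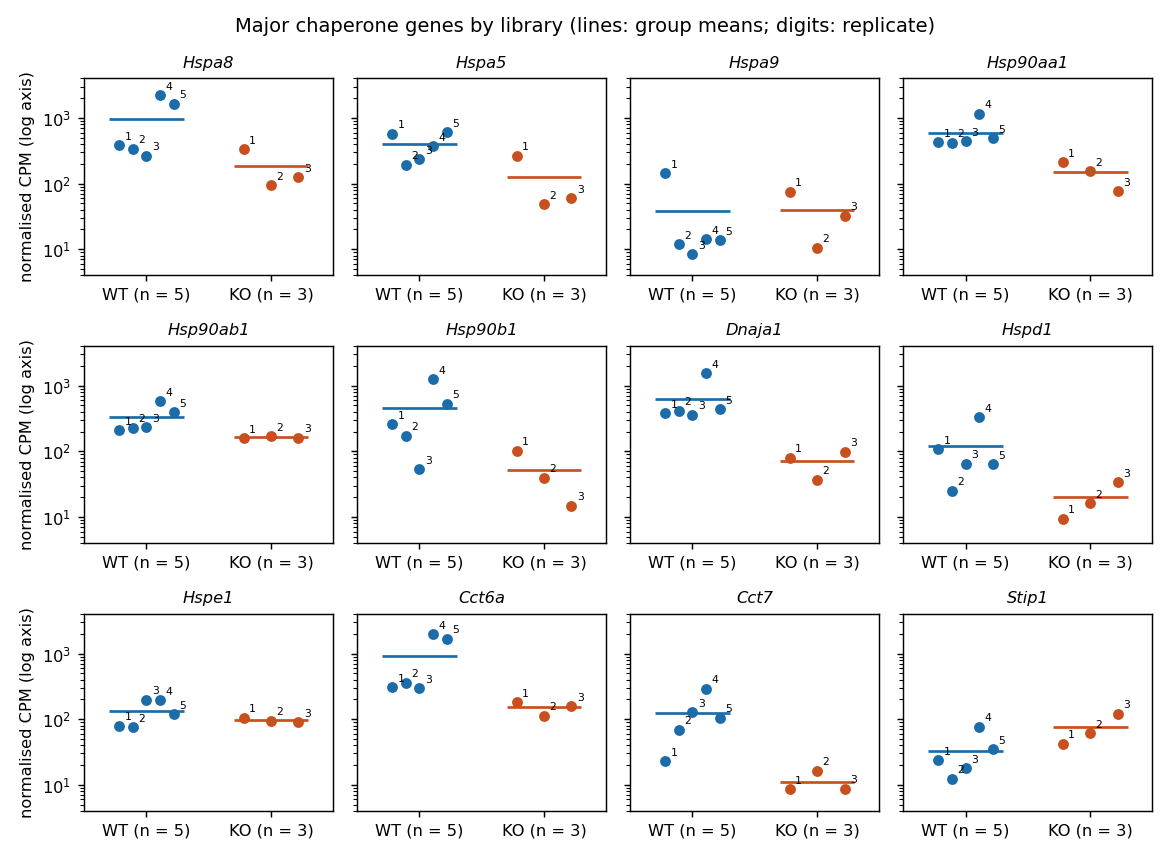
Normalised CPM (log axis) of 12 major chaperone genes in the 5 WT and 3 KO libraries, with digits for replicates and lines for group means. Hsp90aa1, Hsp90ab1, Dnaja1, Cct6a and Cct7 have every KO point below every WT point, while Hspe1 and Stip1 have KO points within or above the WT range.

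The mitochondrial chaperonin partners had log2 changes of different size, and their ratio is tested with other pairs further on. Hspd1 (Hsp60, chr1:55077835-55088243, minus strand), the barrel, gave 109, 25.2, 65.1, 330 and 64.3 CPM in WT and 9.36, 16.3 and 34.2 in KO, with KO replicate 3 above WT replicate 2. Hspe1 (Hsp10, chr1:55088132-55091307, plus strand), the lid, gave 79.2, 76.0, 197, 194 and 120 CPM in WT and 105, 94.5 and 90.7 in KO, inside the WT range. The log2 changes were -2.57 ± 1.07 for Hspd1 (SE, edgeR adjusted p = 0.327) and -0.46 ± 0.65 for Hspe1 (SE, edgeR adjusted p = 0.704), and both genes hold the heat shock elements shown above. They share 112 exonic bases that this kit cannot assign by strand. Hspe1 was one of the steadiest members, with a coefficient of variation of 44.6% in WT and 7.7% in KO, where the median over tested members was 107.2% and 78.7%.

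All 8 subunits of CCT had a log2 change below 0, where 56.8% of all genes and 66.5% of protein-coding genes did. In 2 of the 8 every KO library was below every WT library, as in 4.49% of all genes and 5.43% of protein-coding ones. Their median was -1.99 with all libraries, -0.94 on library totals and -1.07 without WT replicates 4 and 5, and all 8 stayed below 0 in both of those settings. Cct6a (chr5:129786998-129846371, plus strand) read 305, 360, 296, 1956 and 1683 CPM in WT and 182, 114 and 157 in KO. WT replicates 4 and 5 were far above the other 3 WT libraries, and every KO library was lower still. Its log2 change was -2.61 ± 0.86 (SE, edgeR adjusted p = 0.3245) with all libraries and -1.08 without those 2, and DESeq2 called it lower in both cases. Cct6a shares 452 exonic bases with Psph on the opposite strand and a small nucleolar RNA on its own.

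Cct7 (chr6:85451514-85468475, plus strand) gave 22.8, 69.3, 128, 290 and 106 CPM in WT and 8.57, 16.3 and 8.77 in KO. All KO values were under the lowest WT value, and the log2 change was -3.46 ± 1.04 (SE, edgeR adjusted p = 0.3245). Cct4 ran the other way inside WT, at 236, 65.5, 137, 0 and 1.40 CPM, with 119, 29.6 and 19.0 in KO. In WT replicate 4, the deepest library, not 1 count fell on Cct4, while Cct5 in the same library was at 599 CPM. Cct2 (-1.64), Cct3 (-2.37), Cct5 (-2.34), Cct8 (-1.40) and Tcp1 (-0.98) overlapped between groups.

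Because CCT is built from equal numbers of its subunits, their RNA proportions within a library were described as well, on counts per kilobase of gene length. Cct6a held 20.8% to 48.5% of the subunit RNA in WT, at the top in WT replicates 4 and 5 (44.9% and 48.5%), and 22.2%, 23.7% and 40.1% in KO. Cct4 ranged from 0% to 16.7% in WT and from 5.07% to 15.1% in KO, and Cct5 from 0.548% to 19.2% and from 2.88% to 19.9%. For each of these 3 subunits the ranges of the groups overlapped. CCT as a whole took 20.0% to 30.7% of the members' counts per kilobase in WT and 16.2% to 20.5% in KO, with KO replicate 1 (20.5%) above WT replicate 3 (20.0%).

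**Figure D3:**
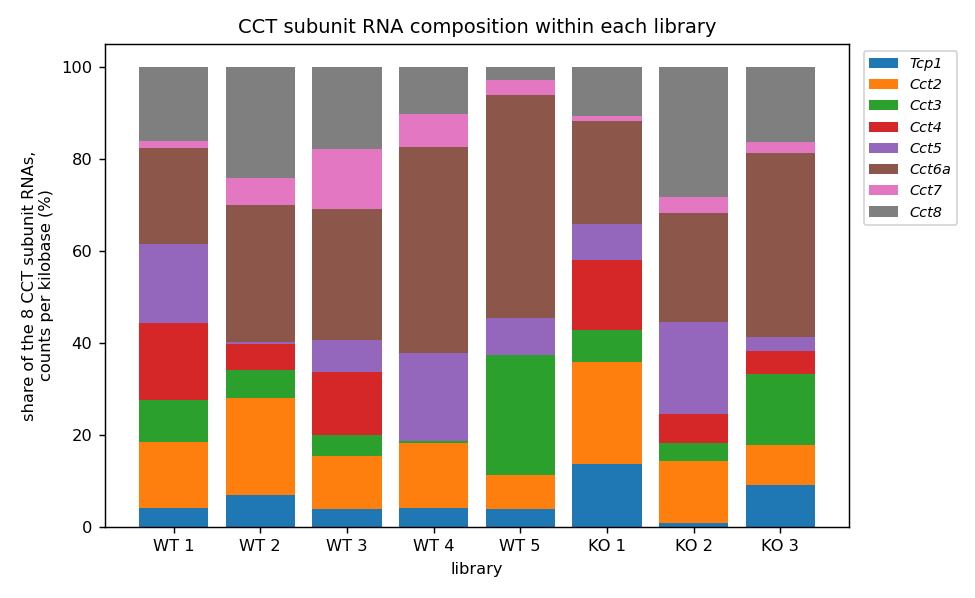
Stacked bars show the share (%) of each of the 8 CCT subunits in their summed counts per kilobase, for each library. Cct6a is the widest band in all 5 WT bars and in KO replicate 3, reaching 48.5% in WT replicate 5, and the Cct4 band is absent from WT replicate 4.

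J-domain proteins hand clients to Hsp70, and Dnaja1 (Hdj2, chr4:40722150-40737149, plus strand) was the DNAJA gene with the highest counts. It gave 385, 414, 363, 1538 and 439 CPM in WT and 80.3, 37.1 and 98.4 in KO. The 4 WT libraries other than replicate 4 lay within 363 to 439 CPM, and every KO library was below them all. The log2 change was -3.13 ± 0.77 (SE, edgeR adjusted p = 0.3245). DESeq2 gave no adjusted p for it with all libraries, and called it lower without WT replicates 4 and 5 (adjusted p = 7.26e-05). Dnaja1 shares 608 exonic bases with Smu1 on the opposite strand, so part of its reads may be Smu1's. Dnaja3, a mitochondrial J-domain protein, had 1, 17, 0, 11 and 0 counts in WT and 32, 61 and 12 in KO, which in normalised CPM put every KO library above every WT library. Without the KO libraries Dnaja3 would not have passed the filter on low counts, so this separation supports nothing.

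Dnajb1 (Hsp40), the heat-inducible partner of Hspa1a, read 61.3, 47.4, 18.9, 168 and 5.44 CPM in WT and 43.3, 1.79 and 26.7 in KO. These ranges overlapped almost wholly. Dnajb6, with its heat shock element, ran from 18.4 to 358 CPM in WT and from 25.8 to 91.5 in KO. Dnajb9 and Dnajb11, both ER co-factors of Hspa5, had log2 changes of -0.79 and -2.08, and Dnajb4 of -4.57, with 606 CPM in WT replicate 4. Over the 9 tested DNAJB genes, 6 changes were below 0 and 3 above. The 4 members with a 3-unit heat shock element had log2 changes from -2.57 to -0.46, with a median of -1.06, and the 48 tested members with a window and no such element had a median of -1.44.

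DNAJC is the largest family here, 28 genes of which 24 were tested, 17 with a change below 0 and 7 above. Dnajc8, a nuclear J-domain protein linked to splicing, had the highest median per kilobase in WT and gave 232, 209, 277, 638 and 346 CPM there and 120, 134 and 111 in KO. Dnajc19, a subunit of the mitochondrial import motor, was the steadiest member in WT, at 109, 151, 153, 209 and 159 CPM, with 64.6, 60.7 and 71.8 in KO. For both genes the groups stood clear of each other in normalised CPM, with log2 changes of -1.48 ± 0.60 and -1.25 ± 0.60 (SE, edgeR adjusted p = 0.3245 and 0.358). On library totals the groups overlapped for Dnajc19. DESeq2 called both Dnajc8 and Dnajc19 lower, with and without WT replicates 4 and 5.

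The extremes of the family were genes close to absent in 1 group. Dnajc24, a co-factor of diphthamide synthesis, had 570, 701, 36, 3317 and 1026 counts in WT and 0, 6 and 7 in KO, with a log2 change of -7.66 ± 2.10 (SE, edgeR adjusted p = 0.3245). DESeq2 called it lower with all libraries (adjusted p = 5.26e-06) and without WT replicates 4 and 5 (adjusted p = 0.00371). Dnajc27, a small GTPase with a J domain, had 0, 1, 0, 0 and 0 counts in WT and 142, 107 and 15 in KO, the largest change upward at 8.31 ± 1.40 (SE, edgeR adjusted p = 0.304). It was the single member that limma-voom called (adjusted p = 0.0380), against 0.149% of all genes. Dnajc27 passed the filter on low counts only through the KO libraries, so that it had to differ, and its change, separation and calls support nothing. Dnajc24 passed it only through the WT libraries, with the same limit. Dnajc17 had 0, 33, 113, 1112 and 0 counts in WT and 0 in all KO libraries. It was at 0 in 2 WT libraries as well, and WT replicate 4 held most of its counts.

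Dnajc3 (p58IPK), an ER co-chaperone, gave 175, 110, 45.2, 237 and 0.698 CPM in WT and 176, 31.4 and 57.4 in KO. Its 5 counts in WT replicate 5 stand against 1687 in WT replicate 4. Dnajc7, a link between Hsp70 and Hsp90, ranged from 5.72 to 184 CPM in WT and from 50.8 to 79.9 in KO. Dnajc10, Dnajc12 and Dnajc18 had the 3 most positive changes among members whose mean log2 CPM reached 3, and each had 1 KO library well above the rest (104 CPM in KO replicate 1, 47.2 in KO replicate 2 and 39.4 in KO replicate 1).

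**Figure D4:**
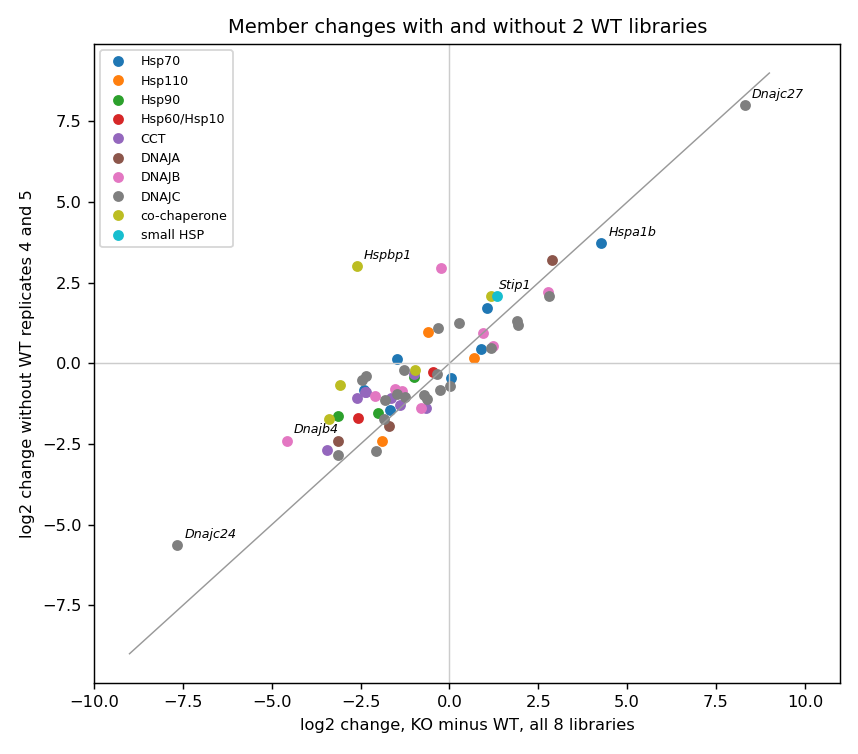
Log2 change of each tested member (KO minus WT) with all 8 libraries (horizontal) against the change without WT replicates 4 and 5 (vertical), coloured by family, with the line of equality in grey. Points below 0 mostly lie above the line, so that their changes were smaller without these 2 libraries, and Hspbp1 goes from -2.61 to 3.01.

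Without WT replicates 4 and 5 the log2 changes (edgeR) were -1.44 for Hspa5, -1.54 for Hsp90aa1, -0.43 for Hsp90ab1 and -1.62 for Hsp90b1. They were -1.69 for Hspd1, -0.26 for Hspe1, -2.68 for Cct7 and -2.42 for Dnaja1, and -0.95 for Dnajc8, -1.05 for Dnajc19, -5.64 for Dnajc24 and 8.01 for Dnajc27. Each of these 12 genes kept the sign it had with all libraries. In proportion to their size, the changes of Hsp90ab1 and Hsp90b1 were among those that shrank most.

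Stip1 (Hop), which joins Hsp70 to Hsp90, was among the 18 members with a change above 0. It read 23.9, 12.4, 18.1, 76.6 and 35.0 CPM in WT and 42.5, 61.0 and 121 in KO. WT replicate 4 lay above 2 of the KO libraries, and the other 4 WT libraries lay below all 3. The log2 change was 1.18 ± 0.89 (SE, edgeR adjusted p = 0.495) with all libraries and 2.09 without WT replicates 4 and 5, where DESeq2 called it higher (adjusted p = 0.0279). St13 (Hip), which steadies the ADP state of Hsp70, gave 101, 180, 248, 739 and 219 CPM in WT and 192, 150 and 116 in KO, inside the WT range.

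Bag1, a nucleotide exchange factor, had 672, 1, 0, 1836 and 1262 counts in WT and 305, 48 and 6 in KO, so that WT alone held both the lowest and the highest values. Bag3, a heat shock factor target that serves selective autophagy, had at most 4 counts in 7 libraries and 69 in KO replicate 1. Small heat shock proteins, which hold unfolded proteins without ATP, were almost undetected. Of 7 genes only Hspb1 (Hsp25) was tested, with 0.0867 to 4.04 CPM in WT and 1.07 to 5.83 in KO, and the other 6 had at most 8 counts in any library. Among the 21 untested members, Dnajb3 had 581 counts in WT replicate 3 and at most 1 elsewhere, and Dnaja4 had 112 and 209 counts in WT replicates 1 and 2 and 0 elsewhere.

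Ratios between members of a library do not depend on how the libraries are scaled, and 6 pairs were compared by an exact two-sided permutation test over 56 splits, whose smallest p is 0.0179. Hsp90aa1 over Hsp90ab1 had a log2 ratio of 1.02, 0.87, 0.93, 1.005 and 0.31 in WT and 0.40, -0.15 and -1.07 in KO. The mean was 0.83 ± 0.29 (SD, n = 5) in WT and -0.27 ± 0.74 (SD, n = 3) in KO, with WT replicate 5 alone below a KO library (exact permutation p = 0.0714, adjusted over the 6 pairs 0.214). Stip1 over St13 stood at -2.08, -3.86, -3.78, -3.27 and -2.64 in WT and -2.18, -1.29 and 0.06 in KO, a difference of 1.99 (exact permutation p = 0.0714, adjusted 0.214).

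Hspd1 over Hspe1 was 0.46, -1.59, -1.60, 0.77 and -0.90 in WT and -3.48, -2.53 and -1.41 in KO, a difference of -1.90 (exact permutation p = 0.107, adjusted 0.214). KO replicate 3 lay within the WT range. The cytosolic over the mitochondrial Hsp70, Hspa8 over Hspa9, differed by -2.66 (exact permutation p = 0.143, adjusted 0.214), with WT from 1.41 to 7.29 and KO from 1.95 to 3.17. Hspa8 over Hspa5 differed by -0.10 (exact permutation p = 0.964, adjusted 1.0) and Hspa4 over Hspa8 by 0.63 (exact permutation p = 1.0, adjusted 1.0). No pair passed the threshold, and in each the groups overlapped. With 6 pairs, a single pair at the smallest p could not pass after adjustment, so the adjusted values say nothing about whether these ratios are stable.

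**Figure D5:**
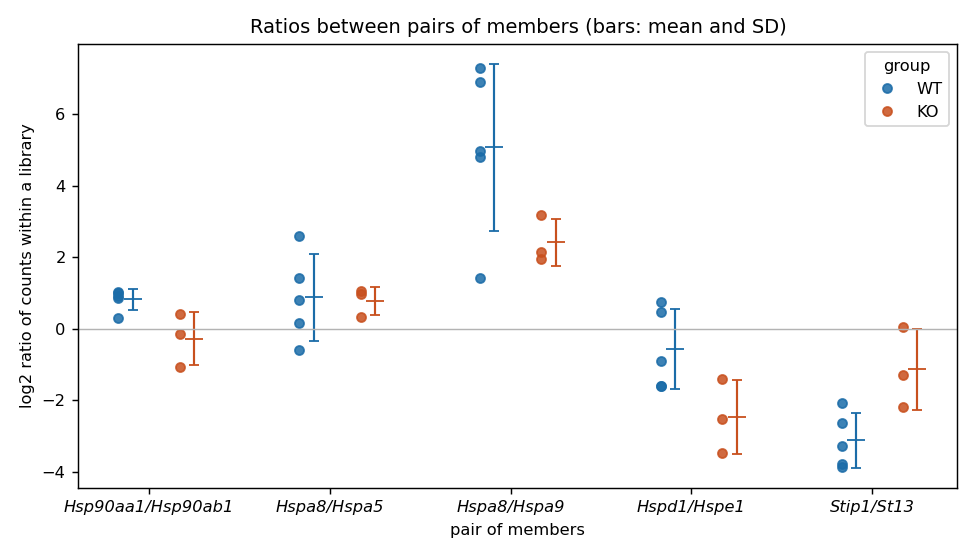
Log2 ratio of counts for 5 pairs of members within each library, for WT (5 points) and KO (3 points), with bars at the mean and SD. For Hsp90aa1/Hsp90ab1 and Stip1/St13 a single WT or KO point keeps the groups from separating, and for Hspa8/Hspa5 the groups lie over each other.

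The order of the members by level, per kilobase of gene length, was set by the WT and KO medians. In WT it ran Dnajc8 (197 normalised CPM per kilobase), Hspa8 (159), Hspe1 (155), Hspa5 (141), Cct6a (139) and Hsp90aa1 (136). Their ranges over WT libraries overlapped throughout, so that these neighbours cannot be ordered beyond their spread. In KO it ran Hspe1 (122), Dnajc8 (85.8), Hsp90ab1 (64.3), Cct6a (60.5), Hspa8 (52.4), Hsp90aa1 (47.2) and St13 (44.7), and Hspa5 stood at rank 14. Hspe1 at 117 to 136 and Dnajc8 at 79.5 to 95.6 did not overlap in KO. Hspe1 held 3.38% to 12.6% of the members' counts per kilobase in WT and 8.79% to 12.8% in KO, and Hspa8 5.53% to 15.7% and 4.18% to 8.97%.

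Genes that work with these chaperones, but fall outside the naming rule, were read in 5 lists, and edgeR called 0 genes in each of them. Their DESeq2 calls below are to be read against the 10.0% of all genes that DESeq2 called lower and the 6.4% it called higher (4.24% and 3.95% without WT replicates 4 and 5), and their changes below 0 against 56.8% of all genes and 66.5% of protein-coding ones. Of the 10768 tested protein-coding genes, DESeq2 with all libraries called 1335 lower and 451 higher. Of 8 regulators of the heat shock response, 6 were tested, 3 with a change below 0 and 3 above, at a median of -0.30. This median turned to 0.37 without WT replicates 4 and 5. Hsf1, the main heat shock factor, gave 43.1, 11.3, 2.77, 91.6 and 0.698 CPM in WT and 50.4, 17.05 and 27.0 in KO, a log2 change of 0.08 ± 1.41 (SE, edgeR adjusted p = 0.980). Hsf2 had a change of -0.68. DESeq2 called 1 of the 6, Hsbp1, a binding partner of Hsf1, which it gave as lower (edgeR log2 change -1.95, and -0.46 without WT replicates 4 and 5).

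Among 26 further co-factors of Hsp90 and Hsp70, 24 were tested, 20 with a change below 0 and 4 above, at a median of -0.90. The median was -0.67 without WT replicates 4 and 5. DESeq2 called Ppid and Sugt1 lower and Unc45a higher. Unc45a, a myosin-directed Hsp90 co-chaperone, gave 16.4, 5.72, 7.57, 3.51 and 2.51 CPM in WT and 45.6, 43.2 and 58.4 in KO. Every KO library was above every WT library, at a log2 change of 2.78 ± 0.98 (SE, edgeR adjusted p = 0.3245). Sugt1, an Hsp90 partner in immune receptor folding, was at 91.8, 19.5, 79.3, 539 and 545 CPM in WT and 35.0, 2.84 and 8.95 in KO, with KO replicate 1 above WT replicate 2. Cacybp, the other co-factor with the highest mean, had a change of -0.96.

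Prefoldin passes new actin and tubulin to CCT. The next list held 19 prefoldin and chaperonin helper genes, with Pdcl, Pdcl3, Txndc9 and Mkks among them. With all libraries its 15 tested genes all had a change below 0, as all 8 CCT subunits did. The median of these 15 genes was -2.34 with all libraries and -0.86 without WT replicates 4 and 5. Unlike the CCT subunits, not all of them stayed below 0. Pfdn6 was at 4.97 without those 2 libraries and at 0.11 on library totals. It had 2115 counts in WT replicate 4 and 20, 1, 1 and 0 in WT replicates 1, 2, 3 and 5. DESeq2 called Pfdn4, Txndc9 and Tbcb lower. Tbcb had 1, 4 and 0 counts in KO. It passed the filter on low counts only through the WT libraries, so its call supports nothing. Pfdn5 and Tbca, the pair with the highest means, had changes of -1.95 and -0.98, and without WT replicates 4 and 5 of -0.55 and -0.30.

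Of 31 ER folding and unfolded protein response genes, 28 were tested, 22 with a change below 0 and 6 above, at a median of -0.98. Their median was -0.80 without WT replicates 4 and 5. DESeq2 called 8 lower (Canx, Calr, Pdia3, Pdia6, Ppp1r15a, Derl2, Ostc and Ppib) and 1 higher (Hyou1). The lectin chaperone Canx gave 301, 255, 125, 185 and 412 CPM in WT and 83.0, 99.4 and 65.2 in KO, without overlap, though on library totals the groups overlapped. Hyou1, the Hsp110 of the ER, ran from 0.418 to 1.82 CPM in WT and from 2.89 to 8.95 in KO, also without overlap. Without the KO libraries Hyou1 would not have passed the filter on low counts, so its separation and call support nothing. Of 16 mitochondrial proteostasis genes, 15 were tested, 11 with a change below 0 and 4 above, at a median of -1.89. That median was -1.28 without WT replicates 4 and 5. DESeq2 called 2 lower, Grpel1 and Phb. Grpel1, the nucleotide exchange factor of Hspa9, had 1403, 503, 483, 4559 and 1475 counts in WT and 77, 1 and 1 in KO, a log2 change of -6.44 ± 1.83 (SE, edgeR adjusted p = 0.3245). Without the WT libraries Grpel1 would not have passed the filter on low counts, so its change and call support nothing. Phb, a prohibitin of the inner membrane, had a log2 change of -2.90 with all libraries (DESeq2 adjusted p = 0.0436) and of 0.49 without WT replicates 4 and 5. Yme1l1, a protease of the inner membrane, had a change of 0.16. The genes named here for their DESeq2 call were chosen after their values were seen.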

How the data were processed

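The 8 libraries were grouped by their titles. Values are expected counts deposited by the authors in 1 gene table, and because 34.643% of rows were not whole they were rounded. Tools listed in the submitters' processing notes, without roles, are RSEM, StringTie, HISAT2, fastp and DESeq2, with the build mm10. Other upstream details are not given in the sources used here. Gene lengths in bases are the deposited ones.

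In R 4.3.3, edgeR 4.0.16 compared KO with WT over all 8 libraries (filterByExpr, minimum count 10, TMM, quasi-likelihood test without covariates, two-sided), and Benjamini-Hochberg adjustment ran over all 14755 tested genes at a threshold of 0.05. A standard error is the size of the log2 change divided by the root of its F statistic. Alternatives were DESeq2 1.42.0, limma 3.58.1 voom, other scalings and filters, thinning to the shallowest library and leaving out libraries. The runs of DESeq2 without WT replicates 4 and 5, and the overlap counts on other scales, were added after the data were seen. Ratios used log2 of counts plus 0.5. The fit was also run on simulated data, whose outcome is not given here and supports no result above. Positions and overlaps came from GENCODE M21 (GRCm38) by gene identifier (51933 genes, all 86 members), promoter windows from RefSeq by symbol. The annotation gives 85 members as protein-coding and Cct6a as a processed transcript. Protein sequences were not analysed here. Figures were drawn with matplotlib 3.10.9.

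The members, lists, named genes and tests were chosen with earlier results of these data known. Named genes were 34 main chaperones, the 3 most positive and 3 most negative changes among members whose mean log2 CPM reached 3, and 2 or more genes per list. Others are named after their values were seen.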

Additional observations from a re-analysis of the deposited data

Results flagged for a closer look

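In 17 of the 43 WT groups of values tested, 1 of the 5 WT libraries lay farther from the rest than Dixon's 95% criterion allows, where chance alone marks about 1 group in 20 of normally distributed values. Normalised CPM, the scale used here, are skewed, so the 17 cannot be set against that rate. WT replicate 4 was the stray high library for Dnaja1 (1538), Hsp90aa1 (1166), St13 (739.2), Dnajb4 (605.6), Cct2 (463.4), Hspd1 (330.0), Dnajb11 (282.1) and Dnajc17 (156.2). WT replicate 5 was the stray high one for Cct3 (688.8), Hspa14 (162.0) and Hsph1 (114.2), and WT replicate 1 for Hspa9 (143.1), Dnajc10 (49.95), Dnajc12 (20.74) and Dnajc18 (9.791). WT replicate 3 stood alone for Hspa1b, at 0.5044 with the other 4 at 0, where the zeros alone fix the result of the criterion. The log2 ratio of Hsp90aa1 to Hsp90ab1 in WT replicate 5, at 0.313, lay below the other 4.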

How the results depend on the processing

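The count of genes called was 0 with edgeR, 1 on library totals, with a mean of at least 5 CPM and with no filter, 22 with limma-voom, 2421 with DESeq2 and 1161 with DESeq2 without WT replicates 4 and 5. Members called numbered 0 in every edgeR setting, 1 with limma-voom, 17 with DESeq2 and 10 with DESeq2 without those 2 libraries. Leaving out single libraries gave 0 calls each time. The members' median log2 change of -1.27 stayed below 0 in every setting and was -0.43 on library totals. Members wholly higher in KO numbered 3 and on library totals 5, against 13.2% and 18.8% of all genes. Those wholly lower in KO numbered 8 and on library totals 6, against 4.49% and 1.67%. Dnaja3, Dnajc27 and Hspa1b, the 3 wholly higher in normalised CPM, passed the filter on low counts only through the KO libraries. Their separation therefore supports nothing.

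Replicate numbers did not pair the libraries (same-number correlations of 0.0113, 0.0219 and 0.0529). With the replicate number as a block edgeR called 0 genes, and the members' median was -0.55. Under the block the log2 change turned to 0.83 for Hspa14 and 3.46 for Bag1, and the ratios to 0.66 for Hspa8/Hspa5 and -2.65 for Hspa4/Hspa8.

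Signs also turned in other settings, and the causes were not tested. Hspa9 was -0.13 with DESeq2 size factors, DESeq2 or no filter, -0.31 with limma-voom, -0.46 without WT replicates 4 and 5, -0.51 with DESeq2 without them and -0.35 without the libraries of the other name prefix. Hspa14 was 0.82 with limma-voom, 0.14 without WT replicates 4 and 5 and 0.0048 with DESeq2 without them. Hsph1 was 0.16 on library totals, 0.051 with protein-coding genes only, 0.97 without WT replicates 4 and 5 and 0.84 with DESeq2 without them. On library totals Hspe1 was 0.30, Dnajc3 0.38 and St13 0.051, and with protein-coding genes only Hspe1 was 0.024 and Dnajc3 0.035. With limma-voom Bag1 was 1.21 and Dnajc10 -0.86. Without WT replicates 4 and 5 the ratio Hspa8/Hspa5 was 0.66 and Hspa4/Hspa8 -2.65.

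Leaving out 1 library at a time gave log2 changes from -0.91 (without KO replicate 1) to 1.72 (without WT replicate 1) for Hspa9 and from -2.16 (KO replicate 1) to 0.61 (WT replicate 5) for Hspa14. The ranges were -3.66 (KO replicate 3) to 1.46 (WT replicate 5) for Hsph1, -1.43 (KO replicate 1) to 0.10 (WT replicate 4) for Dnajc3 and -1.91 (KO replicate 1) to 0.13 (WT replicate 1) for Cct4. They were -1.31 (KO replicate 2) to 5.14 (WT replicate 1) for Dnajc12 and -0.15 (KO replicate 1) to 5.14 (WT replicate 1) for Dnajc10. Hspa5 ran from -2.94 (KO replicate 1) to -1.30 (KO replicate 2) and Hspa1b from 3.79 (KO replicate 3) to 7.40 (WT replicate 3), and 7.43 without the libraries of the other name prefix. The ratio Hspa8/Hspa5 ran from -0.47 (WT replicate 1) to 0.33 (WT replicate 4) and Hspa4/Hspa8 from -1.82 (WT replicate 5) to 2.23 (KO replicate 3). KO depth of 4314262 to 8477688 counts and the wide spread between libraries limit which differences could be detected.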
